A study of Mus musculus with 8 samples.

Results

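The collagen gene family was followed in embryonic mouse molar tooth germs after the mother had received agents that block Hedgehog signalling. The family was taken as every gene whose symbol in the array's annotation has the form Col, number, a, number, on probe sets annotated with exactly 1 gene. This gave 42 collagens, on 82 probe sets, of 18193 genes in all. Of these, 36 collagens passed the filter on low signal (a mean signal of about 60.3), among 13008 genes tested.

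Pregnant ICR mice received a single intraperitoneal injection at embryonic day 14, and molar germs of the lower jaw were taken from the embryos 24 hours later. The 4 groups, with 2 arrays each, were 5E1 (a monoclonal antibody against Shh, 10 mg/kg), 40-1a (an antibody of the same isotype, IgG1, against β-galactosidase, 10 mg/kg), cyclopamine (an antagonist of the Hedgehog transducer Smo, 10 mg/kg) and PBS (phosphate buffered saline, 1 ml). The labels call the arrays of a group biological replicates and do not say whether these came from separate litters, so all p-values measure only the spread between these arrays. Total RNA was hybridised to an Affymetrix mouse array with no cell sorting, so fewer cells of a type and less RNA per cell cannot be told apart.

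Collagens are extracellular proteins built from chains that wind into a helix, and most types need a fixed combination of chains. Fibrillar collagens (types I, III and V) make the tensile fibrils of mesenchyme, and type IV collagens make the sheet of the basement membrane on which the dental epithelium rests. Types VII and XVII help to anchor the epithelium to the tissue beneath it. Types II, IX, X, XI and XXVII are best known from cartilage, and type VI makes beaded microfibrils around mesenchymal cells. Shh is made by the dental epithelium and acts on both tissues of the germ.

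RefSeq promoter windows (GRCm38.p6, 250 bases before to 50 after a start) were given for 33 of the 42 collagens, as 36 windows. The 150 bases before the start are printed here, 5′ to 3′ on the gene's strand, for the 2 epithelial collagens, whose class had the largest median difference between cyclopamine and PBS, for Col3a1 and Col1a2, which took the opposite course from Col17a1 within every group, and for Col4a6 and Col4a5, which lie head to head. In these 150 bases, capitals mark exact matches, on either strand, to the TATA box TATAAA, the CCAAT box CCAAT or the Sp1 motif GGGCGG. No 2 marked stretches overlap. The last line gives the 22 bases that span the starts of Col4a1 and Col4a2. It is printed in lower case throughout, so the GGGCGG that it holds is not marked.
Col17a1, minus strand, chr19:47692043-47692192: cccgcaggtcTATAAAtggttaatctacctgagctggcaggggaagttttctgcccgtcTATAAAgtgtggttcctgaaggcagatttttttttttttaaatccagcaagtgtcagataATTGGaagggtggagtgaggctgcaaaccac
Col7a1, plus strand, chr9:108953436-108953585: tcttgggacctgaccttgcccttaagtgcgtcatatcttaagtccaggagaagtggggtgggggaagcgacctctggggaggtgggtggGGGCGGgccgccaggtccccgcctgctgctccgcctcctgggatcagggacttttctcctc
Col3a1, plus strand, chr1:45311388-45311537: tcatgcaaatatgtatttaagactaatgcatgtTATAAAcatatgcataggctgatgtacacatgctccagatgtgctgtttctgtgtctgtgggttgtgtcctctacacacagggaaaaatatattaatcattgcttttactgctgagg
Col1a2, plus strand, chr6:4505468-4505617: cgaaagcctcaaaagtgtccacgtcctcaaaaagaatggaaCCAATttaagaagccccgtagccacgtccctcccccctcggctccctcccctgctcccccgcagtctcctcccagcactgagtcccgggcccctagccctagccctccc
Col4a6, minus strand, chrX:141474077-141474226: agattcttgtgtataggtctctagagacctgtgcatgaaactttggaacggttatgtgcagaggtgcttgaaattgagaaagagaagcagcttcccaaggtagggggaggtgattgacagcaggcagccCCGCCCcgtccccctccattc
Col4a5, plus strand, chrX:141475269-141475418: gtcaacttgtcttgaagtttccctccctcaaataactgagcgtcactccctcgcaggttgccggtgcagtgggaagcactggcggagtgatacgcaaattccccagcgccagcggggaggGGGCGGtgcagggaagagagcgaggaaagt
Col4a1 and Col4a2 starts, plus strand, chr8:11312805-11312826: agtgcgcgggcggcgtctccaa

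The Gli motif GACCACCCA, to which the transcription factors of the Hedgehog pathway bind, was in none of the 36 collagen windows on either strand, against 0.253% of the 32851 windows searched. The windows searched leave out a chromosome that holds none of the collagens. GGGCGG was in 22 of 36 collagen windows (61.1%, against 35.7% of all windows), CCAAT in 13 (36.1%, against 37.4%) and TATAAA, searched after the sequences had been seen, in 5 (13.9%, against 13.6%). The Col17a1 stretch has TATAAA beginning 140 and 91 bases before the start and CCAAT, on the opposite strand, 31 bases before it. Col7a1, Col4a5 and Col4a6 have GGGCGG on either strand 61, 30 and 21 bases before their starts. The annotated starts of Col4a1 (minus strand) and Col4a2 (plus strand) on chromosome 8 are 21 bases apart, and their windows share 78 bases. Those of Col4a6 (minus) and Col4a5 (plus) on chromosome X are 1343 bases apart, and their windows share none. These matches describe letters in a window only.

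Before the collagens, the arrays themselves were compared. The deposited values had the same trimmed mean, 500.0, on every array. The 8 arrays formed 3 clusters, which cut across the groups: replicate 1 of 5E1, 40-1a and PBS, replicate 2 of 5E1, 40-1a and cyclopamine, and cyclopamine replicate 1 with PBS replicate 2 (correlation of at least 0.977 within clusters and 0.942 to 0.972 between them). Ptch1 and Gli1, which the Hedgehog pathway switches on, stood at 1837 ± 402 and 294 ± 76.5 (signal, SD, n = 2) after 5E1 against 9251 ± 2929 and 1391 ± 276 after 40-1a. After cyclopamine the same genes were at 7738 ± 2750 and 1675 ± 682, against 9042 ± 804 and 1607 ± 759 after PBS, so the arrays labelled cyclopamine did not show lower levels of both genes. Neither gene reached an adjusted p under 0.05 in any comparison by limma without a block for array cluster or replicate number.

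No collagen differed between groups past the threshold. With limma and Benjamini-Hochberg adjustment over all 13008 genes, 0 of 36 collagens were called in 5E1 against 40-1a, in cyclopamine against PBS, in 40-1a against PBS, with both blockers pooled against both controls, or for the antibody effect minus the cyclopamine effect, and 0% of all genes were called in any of the 5. With the array cluster as a block, limma called 3 genes in 5E1 against 40-1a, 2 with the blockers pooled and 3 for the difference of the effects, and with a replicate block 1, 1 and 0 in that order, none of them a collagen. The 0% thus holds for the fit without a block. The array clusters were found in the same values that were then tested, so calls and p-values with that block are description only. In that fit the count of collagens at an unadjusted p under 0.05 was also 0 of 36 in each of the 5 comparisons. The shares of all genes were 1.22%, 1.58%, 0.676%, 1.22% and 1.44% in that order. With the array cluster as a block, 3, 0, 2, 1 and 1 of 36 collagens were under 0.05, beside 615, 657, 419, 525 and 775 of the 13008 genes. Without a block, the collagens with the smallest unadjusted limma p in those comparisons were Col9a3 (0.141), Col24a1 (0.0954), Col9a2 (0.157), Col15a1 (0.142) and Col9a3 again (0.0788). The comparisons below therefore rest on sizes, errors and whether arrays overlap. Leaving out 1 array at a time turned the sign for 30 of 36 collagens in 5E1 against 40-1a, 22 in cyclopamine against PBS and 26 in 40-1a against PBS. Differences are given as log2 differences of signal + 9, a scale that understates changes of dim genes.

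The collagens varied more over the arrays than all genes tested did. The median SD of a collagen's log2 signal over the 8 arrays was 0.42, against 0.24 for all genes tested, and 33 of the 36 collagens lay above the median of all genes. Between the 2 arrays of a group, collagens differed by a median of 0.57, against 0.31 for all genes. Much of the family was low on 1 array: 19 of 36 collagens (52.8%) had their lowest signal on 5E1 replicate 2, against 17.2% of all genes. Among these were 6 of 7 fibrillar collagens and all 3 tested type VI chains, but only 2 of 7 cartilage collagens and neither epithelial collagen. A wide spread and a low 5E1 replicate 2 were not particular to collagens. The mean level of all collagens had a within-group SD of 0.21, against 0.64 for fibril-binding genes and 0.70 for dental mesenchyme markers, lists described below. It was 0.12 for genes of chain modification and folding. The mean levels of these lists were also lowest on 5E1 replicate 2.

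**Figure D1:**
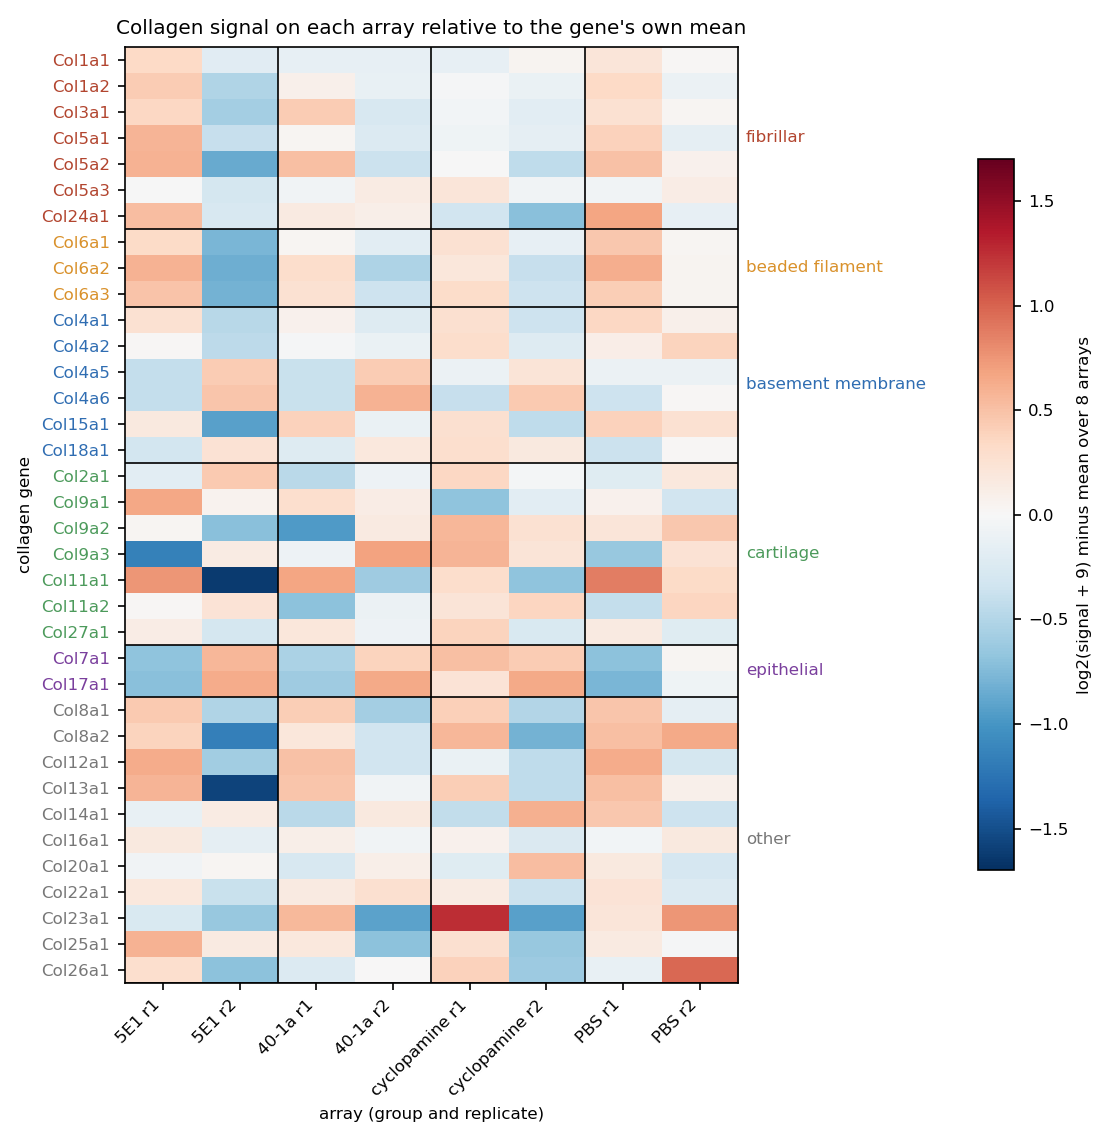
Each cell is the log2(signal + 9) of 1 collagen on 1 array minus that gene's mean over the 8 arrays, with rows ordered by class and columns by group and replicate (r). On 5E1 replicate 2, 19 of the 36 collagens have their lowest value, and Col7a1, Col17a1, Col4a5 and Col4a6 are above their means.

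All 7 fibrillar collagens passed the filter, and none separated 5E1 from 40-1a. Col1a1 and Col1a2 encode the chains of type I collagen, the main fibril of mesenchyme and later of bone and dentin. Col1a1 read 12157 and 8420 (replicates 1 and 2) after 5E1, 8710 and 8745 after 40-1a, 8770 and 9964 after cyclopamine, and 11060 and 9774 after PBS. Col1a2 read 17457 and 9110 after 5E1, 13731 and 11902 after 40-1a, 12777 and 11959 after cyclopamine, and 16427 and 12099 after PBS. The 5E1 arrays were at once the highest and the lowest of all 8 for both chains, so the 40-1a values fell between them. The difference from 40-1a was 0.21 ± 0.19 (SE, limma) for Col1a1 and -0.02 ± 0.29 for Col1a2. The sign for Col1a1 depended on the array used, with 0.48 between the replicate 1 arrays and -0.06 between the replicate 2 arrays, which are the pairs that share a cluster.

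Col3a1, which co-assembles with type I in young and elastic tissue, read 27511 and 14443 after 5E1, 29289 and 17981 after 40-1a, 21038 and 19131 after cyclopamine, and 25933 and 22090 after PBS. Both cyclopamine arrays were below both PBS arrays, by a narrow margin, and the antibody groups overlapped. Col5a2, a chain of the type V collagen that starts and limits fibrils, read 11319 and 4136 after 5E1, 10702 and 5829 after 40-1a, 7440 and 5535 after cyclopamine, and 10542 and 7857 after PBS. It showed the same order, with no overlap between cyclopamine and PBS. Col24a1, a minor fibrillar collagen, was dim, with 142 and 77.3 after 5E1, 107 and 102 after 40-1a, 74.0 and 54.6 after cyclopamine, and 157 and 86.0 after PBS. Cyclopamine and PBS arrays did not overlap here either. Col5a1, the other main type V chain, ran from 2398 to 4690 over the arrays, and Col5a3, a chain of restricted expression, from 130 to 187, the least spread of the class.

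Against 40-1a, 5E1 gave differences of -0.21 to 0.21 for the 7 fibrillar collagens, with 3 higher and 4 lower and a median of -0.02, beside -0.01 for all genes. That median was -0.40 without 5E1 replicate 1 and 0.45 without 5E1 replicate 2. Against PBS, cyclopamine gave -0.79 to 0.03, with 1 higher and 6 lower and a median of -0.24, beside 0.02 for all genes. The differences without overlap were -0.25 ± 0.32 (SE, limma, unadjusted p = 0.454) for Col3a1, -0.50 ± 0.47 (unadjusted p = 0.317) for Col5a2 and -0.79 ± 0.42 (unadjusted p = 0.0954) for Col24a1. Between cyclopamine replicate 1 and PBS replicate 2, the arrays of these groups that share a cluster, the same genes differed by -0.07, -0.08 and -0.20. With the array cluster as a block the cyclopamine median of the class was 0.06, and the values were 0.11 for Col3a1 and 0.05 for Col5a2, so these signs turned. Col1a2 has 3 probe sets above the filter, and these gave -0.27 to 0.20 for cyclopamine, so its direction depends on the probe set.

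**Figure D2:**
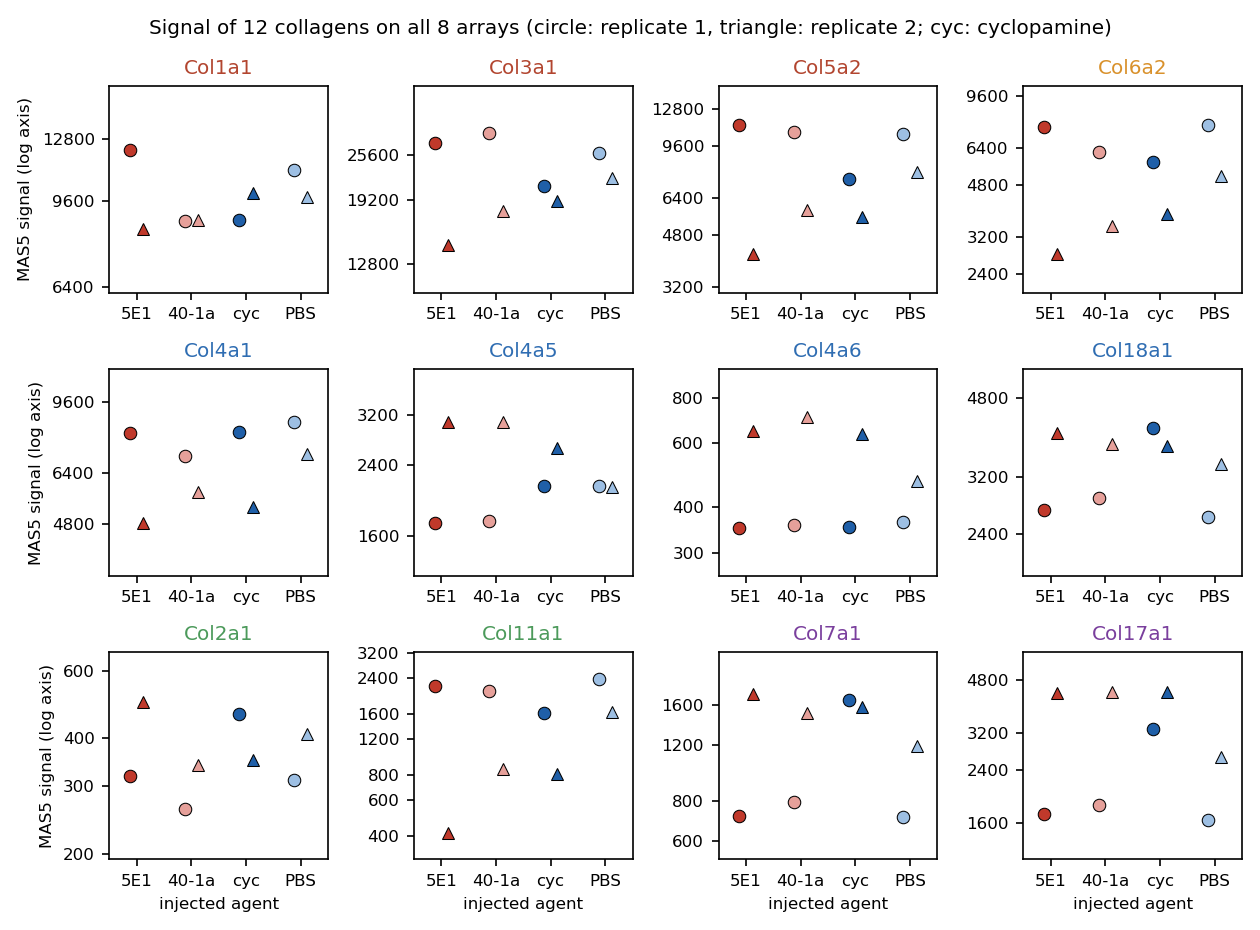
The MAS5 signal (log axis, 1 panel per gene) of 12 collagens is drawn for each injected agent, with circles for replicate 1 and triangles for replicate 2, and titles coloured by class. Col7a1 and Col17a1 after cyclopamine lie above both PBS arrays, while their 5E1 and 40-1a arrays cover nearly the same range.

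The beaded filament chains Col6a1, Col6a2 and Col6a3, which form type VI collagen, varied over a wider range than 5 of the 7 fibrillar chains. Col6a2 read 7536 and 2812 after 5E1, 6198 and 3484 after 40-1a, 5754 and 3836 after cyclopamine, and 7685 and 5165 after PBS. In each group 1 array was clearly above the other, and the groups overlapped in both comparisons. The 3 chains differed by -0.15 to -0.01 between 5E1 and 40-1a and by -0.42 to -0.19 between cyclopamine and PBS, all within 1 SE.

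Basement membrane collagens did not act as a single set. Col4a1 and Col4a2 are the chains of the type IV network found in nearly every basement membrane, vessels included. Col4a1 read 8029 and 4824 after 5E1, 7061 and 5758 after 40-1a, 8083 and 5272 after cyclopamine, and 8566 and 7132 after PBS. Col4a2 read 2457 and 1779 after 5E1, 2394 and 2233 after 40-1a, 2980 and 2071 after cyclopamine, and 2613 and 3153 after PBS. Both were lowest on 5E1 replicate 2, and neither separated a blocker from its control.

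Col4a5 and Col4a6 form the type IV network of epithelial basement membranes. Col4a5 read 1722 and 3064 after 5E1, 1748 and 3071 after 40-1a, 2132 and 2652 after cyclopamine, and 2133 and 2115 after PBS. Col4a6 read 350 and 650 after 5E1, 358 and 711 after 40-1a, 353 and 638 after cyclopamine, and 365 and 472 after PBS. The 5E1 and 40-1a groups had nearly the same 2 values for each gene, and the replicate 2 array of 5E1 was among the highest here, where Col4a1 was lowest. Col18a1, the multiplexin collagen of basement membranes from which endostatin is cut, read 2702 and 4006 after 5E1, 2883 and 3794 after 40-1a, 4108 and 3760 after cyclopamine, and 2614 and 3420 after PBS. Its cyclopamine arrays lay above both PBS arrays. Col15a1, the related multiplexin of vessel and muscle basement membranes, ran from 179 on 5E1 replicate 2 to 460.

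Against 40-1a, 5E1 gave -0.52 to -0.01 for the 6 basement membrane collagens, 0 higher and 6 lower, with a median of -0.06. Of all genes, 46.7% were higher. The value for Col15a1, -0.52 ± 0.40 (SE, limma, unadjusted p = 0.230), rested on 5E1 replicate 2, since without that array it was 0.02. Against PBS, cyclopamine gave -0.41 to 0.39, with 3 higher and 3 lower and a median of -0.02. Col18a1 differed by 0.39 ± 0.24 (limma, unadjusted p = 0.139), with 0.39 and 0.40 on its 2 probe sets and 0.26 between the arrays that share a cluster.

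Epithelial collagens had the largest median difference of the 6 classes for cyclopamine against PBS, 0.83, and a median of -0.02 for 5E1 against 40-1a. The antibody median rested on single arrays, at 0.63 and -0.66 without replicates 1 and 2 of 5E1 and at -0.56 and 0.52 without replicates 1 and 2 of 40-1a. The cyclopamine median was 0.47 without PBS replicate 1, 1.19 without PBS replicate 2 and 0.27 with the array cluster as a block. Col17a1 is the transmembrane collagen of the hemidesmosome, and Col7a1 forms the anchoring fibrils beneath it. Col17a1 read 1711 and 4328 after 5E1, 1839 and 4382 after 40-1a, 3291 and 4395 after cyclopamine, and 1637 and 2660 after PBS. Col7a1 read 721 and 1725 after 5E1, 796 and 1511 after 40-1a, 1653 and 1571 after cyclopamine, and 712 and 1190 after PBS. For both genes the 2 cyclopamine arrays were above the 2 PBS arrays, while the 5E1 and 40-1a arrays matched replicate for replicate.

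Cyclopamine against PBS gave 0.86 ± 0.52 for Col17a1 (SE, limma, unadjusted p = 0.139, 95% interval -0.35 to 2.08) and 0.80 ± 0.46 for Col7a1 (unadjusted p = 0.120, interval -0.26 to 1.87). Between cyclopamine replicate 1 and PBS replicate 2, which share a cluster, the differences were 0.31 and 0.47. The antibody gave -0.06 ± 0.52 (interval -1.27 to 1.15) and 0.03 ± 0.46 (interval -1.04 to 1.09), intervals that leave room for a difference as large as that seen with cyclopamine. The test of the antibody effect minus the cyclopamine effect gave -0.92 ± 0.74 for Col17a1 (limma, unadjusted p = 0.248) and -0.78 ± 0.65 for Col7a1 (unadjusted p = 0.267), so the 2 blockers were not shown to differ.

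Markers of epithelium and of other tissues also differed in mean between these groups. Of the suprabasal oral epithelium markers (Krt1, Krt4, Krt13 and others), 11 of 11 had a higher mean after cyclopamine than after PBS, with a summed signal of 38427 to 82523 against 37023 to 40685. Of the dental epithelium markers (Krt5, Krt14, Trp63 and others), 10 of 11 were higher, with 83309 to 112841 against 67223 to 76478. Skeletal muscle markers were higher in 14 of 14 cases (3185 to 11913 against 2140 to 3964), and dental mesenchyme markers (Msx1, Barx1, Prrx1 and others) were lower in 10 of 11 (16282 to 36457 against 30694 to 35286). Endothelium markers were lower in 8 of 10 (median -0.41) and leukocyte markers in 8 of 9 (median -0.19). In 40-1a against PBS, which shares the PBS arrays, 11 of 11 suprabasal, 10 of 11 dental epithelium and 11 of 14 muscle markers were higher, and 11 of 11 dental mesenchyme, 10 of 10 endothelium and 7 of 9 leukocyte markers lower. In 5E1 against 40-1a, 10 of 11 dental mesenchyme markers were lower, while 5 of 11 were higher on each epithelial list. Of all genes tested, 53.1% were higher in cyclopamine against PBS, 49.3% in 40-1a against PBS and 46.7% in 5E1 against 40-1a. No marker of these lists was called by limma or stood at 0. The part of these tissues in the collagen values was not tested.

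**Figure D3:**
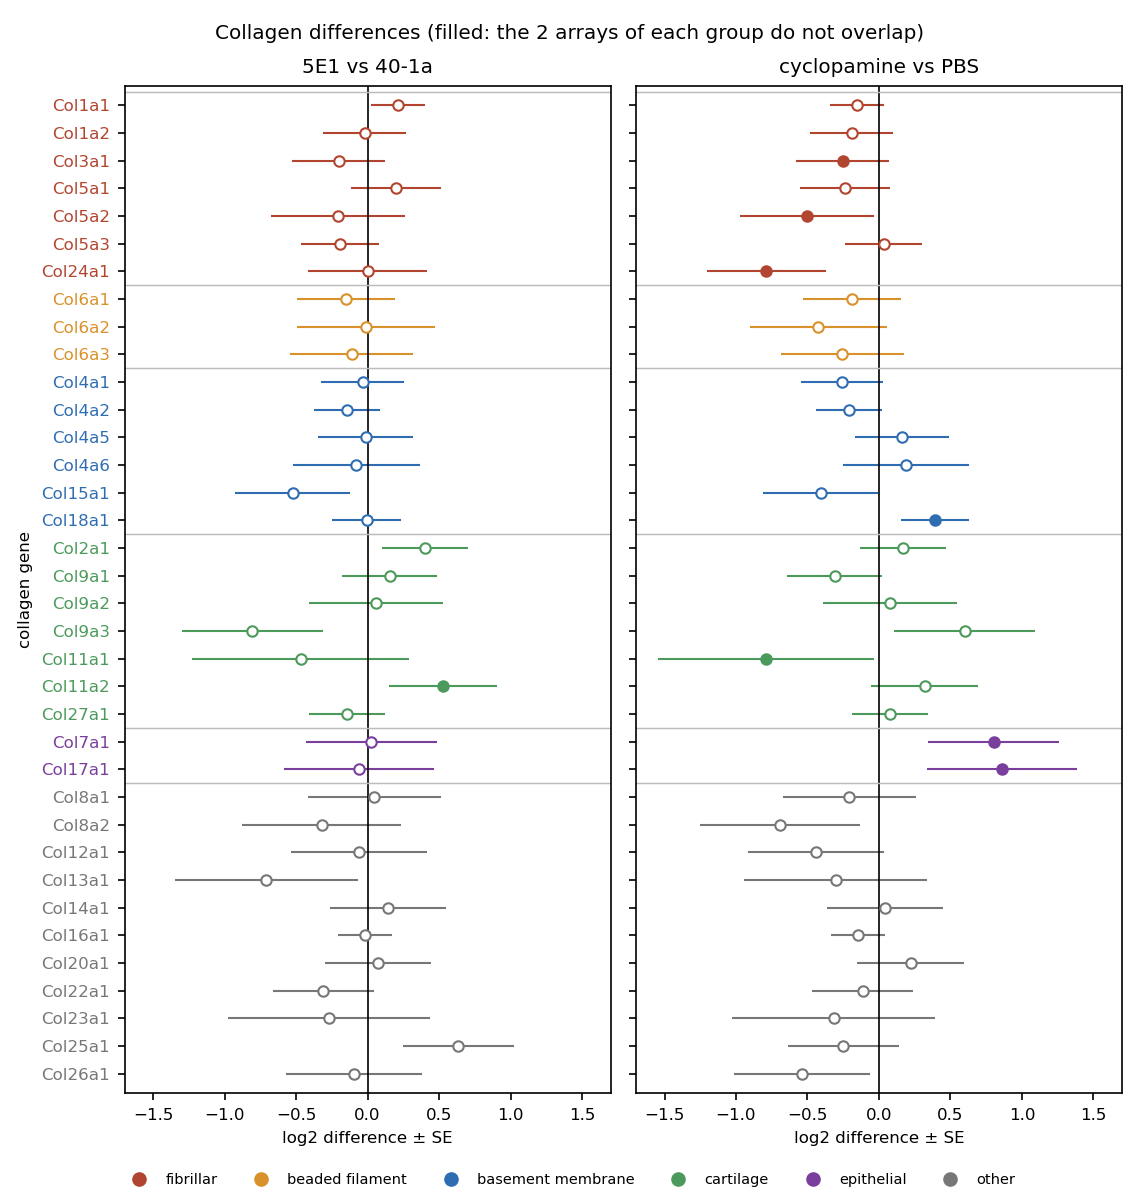
Points give the log2 difference of each of the 36 collagens and bars its limma SE (horizontal axis, log2 units), coloured by class, for 5E1 against 40-1a and cyclopamine against PBS. A filled point means that the 2 arrays of each group do not overlap, which holds for 1 collagen on the left and 7 on the right.

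Cartilage collagens were mostly dim and went separate ways. Of the 12 cartilage markers listed, 5 (Matn1, Matn3, Cnmd, Epyc and Ucma) did not pass the filter and 7 did. Among those 7, the proteoglycan Acan had a mean signal of 67.2 and the transcription factors Sox5, Sox9 and Sox6 had means of 150, 454 and 807. Col2a1, the chief cartilage fibril, read 318 and 496 after 5E1, 261 and 341 after 40-1a, 463 and 352 after cyclopamine, and 311 and 411 after PBS. Col9a3, a chain of type IX collagen on the surface of those fibrils, read 175 and 444 after 5E1, 377 and 651 after 40-1a, 605 and 468 after cyclopamine, and 254 and 477 after PBS. Both overlapped between each blocker and its control. Col11a2, a type XI chain, read 103 and 121 after 5E1, 59.2 and 94.0 after 40-1a, 120 and 134 after cyclopamine, and 74.4 and 133 after PBS. With the deposited scaling it was the single collagen whose 5E1 arrays were both above the 40-1a arrays.

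Col11a1, the type XI chain that also joins type V in soft tissue, had the widest range of all tested collagens, 5.64-fold. It read 2209 and 416 after 5E1, 2079 and 854 after 40-1a, 1611 and 807 after cyclopamine, and 2386 and 1642 after PBS. The low arrays were replicate 2 of 5E1, 40-1a and cyclopamine. Both cyclopamine arrays lay below both PBS arrays, the higher of them only just below the lower PBS array. Col9a1 and Col9a2, the other type IX chains, ran from 92.2 to 248 and from 32.7 to 111, and Col27a1, a fibrillar collagen of cartilage and tooth, from 987 to 1577. Col10a1, made by hypertrophic cartilage cells, did not pass the filter, with 64.2 on 5E1 replicate 1 and 2.1 to 11.3 on the other arrays.

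For the 7 tested cartilage collagens, 5E1 against 40-1a gave -0.81 (Col9a3, ± 0.49, limma, unadjusted p = 0.141) to 0.53 (Col11a2, ± 0.38, unadjusted p = 0.200), with 4 higher and 3 lower and a median of 0.06 (-0.16 without 5E1 replicate 1 and 0.42 without 5E1 replicate 2). Col2a1 stood at 0.40 ± 0.30. Cyclopamine against PBS gave -0.79 (Col11a1, ± 0.76) to 0.60 (Col9a3, ± 0.49), with 5 higher and 2 lower and a median of 0.08. The Col11a1 value shrank to -0.03 between cyclopamine replicate 1 and PBS replicate 2. Col9a3 had opposite signs with the 2 blockers, and the difference between the 2 effects, -1.40 ± 0.69, did not pass the threshold (limma, unadjusted p = 0.0788). The 2 Col9a3 probe sets above the filter gave -0.81 and -0.33 for the antibody, and the first of these values was -0.16 without 5E1 replicate 1.

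Counting arrays that do not overlap, 5E1 against 40-1a held 1 of 36 collagens higher (Col11a2), against 8.66% of all genes, and 0 lower, against 10.8%. Cyclopamine against PBS held 3 higher (Col17a1, Col7a1 and Col18a1), against 17.8% of all genes, and 4 lower (Col3a1, Col5a2, Col24a1 and Col11a1), against 14.4%. In the control comparison of 40-1a against PBS, where no pathway was blocked, 1 collagen was higher (Col9a1), against 9.71%, and 6 were lower (Col1a1, Col4a1, Col4a2, Col6a1, Col8a2 and Col9a2), against 10.8%. With the 4 blocker arrays set against the 4 control arrays, 0 collagens separated, against 1.37% of all genes. The counts with either blocker were thus no larger than the 7 found between the controls. When arrays were centred on their medians, the median of all genes for cyclopamine against PBS shifted by 0.13 to 0.15. Col17a1, Col7a1, Col18a1 and Col24a1 kept their separation from PBS then, Col3a1, Col5a2 and Col11a1 lost it, and Col4a5 (higher) and Col1a1 (lower) gained it, while for the antibody Col25a1 replaced Col11a2.

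Over all 36 collagens the median difference was -0.05 for 5E1 against 40-1a (12 higher, 24 lower), -0.20 for cyclopamine against PBS (13 higher, 23 lower) and -0.18 for 40-1a against PBS (10 higher, 26 lower). Of all genes tested, 46.7%, 53.1% and 49.3% were higher in that order. After median centring the collagen medians were 0.03, -0.07 and -0.27, so the sign of the antibody median depends on the scaling. It also depends on single arrays, at -0.36 without 5E1 replicate 1 and 0.35 without 5E1 replicate 2. The 2 epithelial collagens were also higher in 40-1a than in PBS (0.44 for Col17a1 and 0.25 for Col7a1, both within 1 SE). For 29 of 36 collagens the antibody difference lay within 1 SE, and for 26 the cyclopamine difference did. Col25a1, a transmembrane collagen, had the largest positive antibody value (0.63 ± 0.39, limma, unadjusted p = 0.142), which was 0.19 without 40-1a replicate 2 and 1.08 without 40-1a replicate 1, and Col13a1, another transmembrane collagen, a value of -0.71 ± 0.64 that became 0.37 without 5E1 replicate 2.

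Within groups, many collagens ran opposite to Col17a1. In each of the 4 groups replicate 2 had the higher Col17a1 signal, so the direction described here is also that between replicate 1 and replicate 2. On that array 16 of the other 35 collagens (45.7%) were lower in all 4 groups, against 18.8% of all genes. By class these were 5 of 7 fibrillar, 3 of 3 type VI, 2 of 7 cartilage, 2 of 6 basement membrane and 4 of 11 other collagens. These were Col1a2, Col3a1, Col5a1, Col5a2 and Col24a1 of the fibrillar class, all 3 type VI chains, Col4a1, Col15a1, Col11a1, Col27a1, Col8a1, Col12a1, Col13a1 and Col25a1. Only Col4a6 and Col11a2 (5.71%) went the same way as Col17a1 in all 4 groups, against 14.3% of all genes. Col7a1, Col4a5, Col18a1, Col2a1, Col9a3, Col14a1 and Col20a1 did so in 3 groups. This pattern was chosen after the values had been seen and carries no test. With the mean of a gene's probe sets in place of the brightest, 12 collagens ran opposite to Col17a1 in all 4 groups. The share of all genes in that setting is not given here, so the 12 cannot be set against the 16.

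Several marker lists were split over the arrays in a like way. The mean level of the fibrillar collagens, as a log2 deviation from each gene's own mean, was 0.40 and -0.44 on the 5E1 arrays (replicates 1 and 2), 0.14 and -0.13 on 40-1a, -0.06 and -0.23 on cyclopamine, and 0.33 and -0.02 on PBS. That of the epithelial collagens was -0.69 and 0.60, -0.57 and 0.51, 0.37 and 0.54, and -0.73 and -0.02 on the same arrays. Dental mesenchyme markers stood at 0.35 and -1.11, 0.38 and -0.37, 0.50 and -0.58, and 0.30 and 0.53. Fibrillar collagens and mesenchymal markers were thus both lowest on 5E1 replicate 2, where the epithelial collagens and the dental epithelium markers (0.47) were at their highest. PBS replicate 2 and cyclopamine replicate 1 were exceptions, with the 2 highest mesenchymal marker levels and fibrillar collagens just below their mean. On cyclopamine replicate 1 the epithelial lists also parted, with epithelial collagens at 0.37 and dental epithelium markers at -0.09. The 10 endothelium markers were also lowest on 5E1 replicate 2 (-0.60, a summed signal of 3171 against at most 6487). The share of each tissue in the germs was not measured, and its part in the collagen values was not tested.

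**Figure D4:**
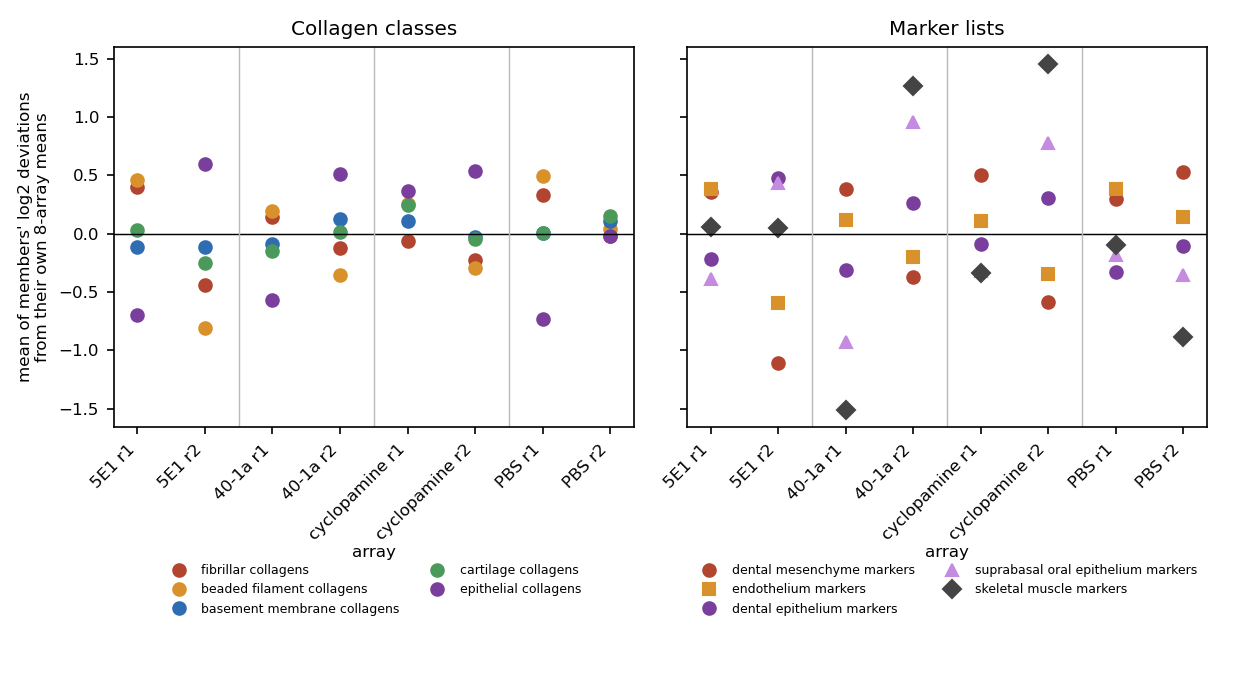
For each array (horizontal axis, r for replicate) the vertical axis gives the mean of the members' log2 deviations from their own means over the 8 arrays, for 5 collagen classes and for 5 marker lists. Epithelial collagens range from -0.73 to 0.60, basement membrane collagens only from -0.12 to 0.13, and dental mesenchyme markers reach -1.11 on 5E1 replicate 2.

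Chains that are built into the same molecule were compared by the SD, over the 8 arrays, of their log2 difference. For Col6a1 with Col6a3 that SD was 0.15, against 0.39 and 0.46 for the chains alone. Col4a1 with Col4a2, whose starts lie 21 bases apart, gave 0.18 (0.31 and 0.27 alone), and the head-to-head genes Col4a5 and Col4a6 gave 0.19 (0.33 and 0.44 alone). Col1a1 with Col1a2 gave 0.18 (0.19 and 0.29 alone) and Col5a1 with Col5a2 0.30 (0.33 and 0.52 alone). In these pairs the difference varied less than either chain, by a narrow margin for Col1a1 with Col1a2. With the mean of probe sets this no longer held for Col1a1 with Col1a2 (0.21, against 0.12 and 0.24 alone) or Col5a1 with Col5a2 (0.39, against 0.23 and 0.54 alone), while it held for the type IV and VI pairs. The type IX chains did not: the SD of the difference was 0.75 to 0.95 for their 3 pairings, larger than that of any chain alone. Col9a1 and Col9a2 were dim (mean signals of 160 and 76.8), and Col9a3 was less so (431.5). Col11a1 with Col11a2 gave 1.13 (0.88 and 0.39 alone), with Col11a1 running opposite to Col17a1 in all 4 groups and Col11a2 with it. Col2a1 with Col11a2, in contrast, gave 0.24 (0.30 and 0.39 alone), with mean signals of 369 and 105. No unrelated pairs were measured beside these, so a small SD is not shown to be particular to chains of 1 molecule.

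**Figure D5:**
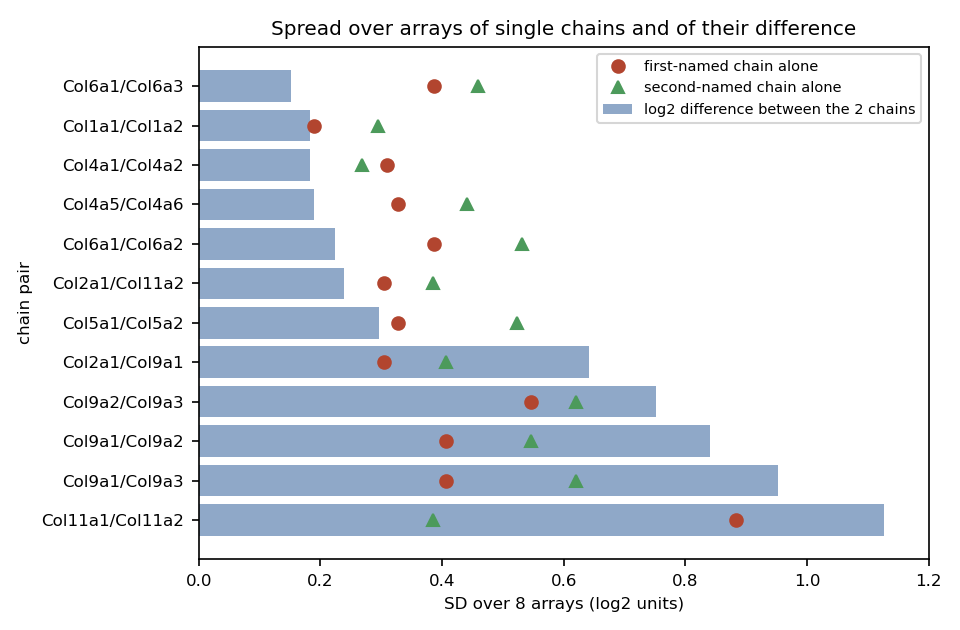
Bars give the SD over the 8 arrays (log2 units, from 0) of the difference between 2 chains, and symbols the SD of each chain alone, for 12 pairs. The bar is shorter than both symbols in 7 pairs, from 0.15 (Col6a1 with Col6a3) to 0.30 (Col5a1 with Col5a2), and longer than both in 5 pairs with a type IX or XI chain.

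Genes that make, cut, bind and break down collagens were counted from lists. Beside these counts, 46.7% of all genes tested were higher after 5E1 than after 40-1a, and 53.1% after cyclopamine than after PBS. Of 19 tested genes for chain modification and folding (prolyl and lysyl hydroxylases, chaperones), 0 were called by limma in either blocker comparison, with 9 higher and 10 lower after 5E1 and 10 higher and 9 lower after cyclopamine. P4ha2, a prolyl hydroxylase subunit, was at an unadjusted p of 0.0387 after cyclopamine (937 ± 5.83 against 685 ± 105, SD, n = 2, limma), and the collagen chaperone Serpinh1 at 11580 ± 2234 against 13670 ± 118. Of 11 processing and crosslinking genes, 4 were higher and 7 lower in both comparisons, with Loxl4, a lysyl oxidase, at 48.8 ± 17.4 after 5E1 against 118 ± 7.29 after 40-1a (limma, unadjusted p = 0.0183, adjusted p = 1).

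Among 10 fibril-binding proteoglycans and proteins the median was -0.07 after 5E1 and -0.45 after cyclopamine, where 8 of 10 were lower, such as Lum, a small proteoglycan of collagen fibrils, at 6405 ± 2889 against 12367 ± 2555. All 11 genes of collagen breakdown had lower means after cyclopamine than after PBS (median -0.36), Ctsk, a collagen-cutting protease, at 1298 ± 294 against 1830 ± 178. After 5E1, 8 of these 11 were lower (median -0.16). Of 8 receptors, 5 were lower in each comparison, and Itgb1, the common chain of collagen-binding integrins, stood at 1749 ± 531 after cyclopamine against 2534 ± 310 (limma, unadjusted p = 0.0665). Among 18 partners of the basement membrane, Frem2, an epithelial basement membrane protein, stood at 824 ± 123 after cyclopamine against 570 ± 35.6 (limma, unadjusted p = 0.0296, adjusted p = 0.983), while the laminin chain Lamc3 had lower means with both blockers, at 89.8 ± 38.7 against 162 ± 35.5 after 5E1 and at 140 ± 74.4 against 257 ± 17.3 after cyclopamine. In 40-1a against PBS, which shares the PBS arrays, 11 of 11 collagen breakdown genes (median -0.42) and 9 of 10 fibril-binding genes (median -0.36) were also lower. Lamc3 was lower after 40-1a (162) than after PBS (257) as well. None of these lists held a gene past the threshold.

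The collagens below the filter were Col4a3 and Col4a4, of the type IV network of kidney and inner ear, Col6a4 and Col6a5, Col10a1 and Col19a1. Outside Col10a1 their signals ran from 3.9 to 94.0, and no difference is given for them. Of the tested collagens, 19 had at least 2 probe sets above the filter. Their probe sets gave opposite signs for 5 genes with the antibody (Col1a2, Col8a1, Col12a1, Col18a1 and Col23a1) and for 3 with cyclopamine (Col1a2, Col27a1 and Col4a5). Both probe sets of Col3a1, Col5a2, Col4a1, Col4a6 and Col11a1 kept their sign in these 2 comparisons, and Col17a1 and Col7a1 have 1 probe set each.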

How the data were processed

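The deposited values are MAS5 signal intensities on a linear scale, scaled by the authors to 1 trimmed mean on every array; MAS5 is named in the submitters' processing notes, and no label or header used here gives its settings. Of 45101 probe sets, 34945 carried exactly 1 gene symbol in the platform annotation, 932 several and 9160 none. Where a gene had several probe sets, the brightest by mean log2(signal + 9) stood for it. Genes with a mean at or above the 40th percentile of the probe sets that are not controls were tested with limma 3.58.1 (R 4.3.3: lmFit on 4 group means, eBayes with trend, 4 residual degrees of freedom, Benjamini-Hochberg, threshold 0.05), checked on simulated data. The simulated noise was independent for each gene and array, without the clusters of the real arrays, so the check does not cover these. The members and lists were chosen with earlier results of these data known. Named are all tested fibrillar, cartilage, basement membrane and epithelial collagens, and of each partner list at most 3 and 2 genes by smallest p in the antibody and cyclopamine comparisons. The number of arrays limits the precision. Sequences are RefSeq's (GRCm38.p6), and all 42 symbols matched its gene table. Replicate numbers were not taken as pairs, since the labels name no shared litter and the correlations of same-numbered deviations ran from 0.0016 to 0.59. Protein sequences were not analysed here.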

Additional observations from a re-analysis of the deposited data

How the results depend on the processing

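Of 992 combinations of a result with an alternative, 958 kept their direction or stayed within the spread, 23 moved and 11 reversed, and no collagen passed the threshold under any. Many of these combinations could not change a difference, such as leaving out an array of a group not compared, or a fit that alters only the error. The 958 is thus no measure of how stable the differences are. Leaving out 1 array each time, the median log2 difference for 5E1 against 40-1a ran from -0.40 (without 5E1 replicate 1) to 0.45 (without 5E1 replicate 2) for fibrillar, from -0.16 to 0.42 for cartilage, from -0.239 to 0.004 for basement membrane, from -0.66 (without 5E1 replicate 2) to 0.63 (without 5E1 replicate 1) for epithelial and from -0.36 to 0.35 for all collagens. The cartilage median ran from -0.056 to 0.248 for cyclopamine against PBS, and for 40-1a against PBS from -0.30 to 0.07, with the basement membrane median at -0.178 to -0.009. Over the same omissions 30 of 36 collagens changed sign for 5E1, most widely Col11a1 (-1.66 to 0.72), 22 for cyclopamine, most widely Col23a1 (-1.41 to 0.77), and 26 for 40-1a against PBS. Among those named by rule were Col13a1 (-1.79 to 0.37), Col15a1 (-1.068 to 0.019) and Col1a1 (-0.052 to 0.478) for 5E1, Col26a1 (-1.091 to 0.018) for cyclopamine, and Col11a2 (-0.764 to 0.007) and Col26a1 (-1.089 to 0.019) for 40-1a against PBS. With the array cluster as a block, 19 of 36 cyclopamine values and 14 of 36 for 40-1a against PBS changed sign, and 0 for 5E1. The cyclopamine values turned to 0.071 for the median of all collagens, 0.061 for the fibrillar median, 0.093 for Col11a1, 0.047 for Col5a2 and 0.109 for Col3a1, and the values for 40-1a against PBS to 0.032 (all collagens), -0.012 (cartilage), 0.066 (Col26a1) and 0.001 (Col8a2). A stricter filter gave a cartilage median of -0.30 for 5E1, and for 40-1a against PBS a stricter filter and no filter both gave -0.09, with 0.11 for basement membrane without a filter. Median centring gave a basement membrane median of 0.10 for cyclopamine, and the mean of probe sets gave 0.12 for Col26a1 in 40-1a against PBS. The causes were not tested. Same-numbered arrays deviated together in 5 of 6 pairs of groups (correlations of 0.32 to 0.59), and the labels do not say what a number shares. With a replicate block, 870 genes in place of 205 had an unadjusted p under 0.05 for cyclopamine against PBS, among them 4 collagens (Col17a1, unadjusted limma p = 0.0048), with 0 called, while same-numbered cyclopamine and PBS deviations correlated at 0.0016.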
